A study of Danio rerio with 4 samples.

Results

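Gata1+ cells of zebrafish embryos injected with a morpholino against foxo3b (foxo3b MO) were compared with Gata1+ cells of control embryos at 24 hours post fertilization (hpf), which takes 2 of the 4 RNA-seq libraries of the series. Both libraries came from embryos of a gata1:GFP line, in which the gata1 promoter, active in red blood cell precursors, drives green fluorescent protein. Embryos were injected at the 1-cell stage with the foxo3b MO or with a standard MO, and Gata1+ cells were collected by flow sorting, per the labels. The remaining pair holds the same groups at 48 hpf. The sources used here do not say how many embryos were pooled or how far Foxo3b protein was reduced. Each group has 1 library, so no spread within a group exists, no test was run, and every value describes these libraries.

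FOXO proteins are forkhead transcription factors that are held in the cytoplasm when insulin and related growth factors signal through PI3K and AKT, and that enter the nucleus when this signal is low or the cell is under stress. FOXO3 is known in mammals for its part in red cell maturation and in the defence against oxidative damage. A morpholino is a synthetic oligonucleotide that blocks translation or splicing of an RNA and need not lower the level of that RNA, so the FPKM of foxo3b is no measure of the knockdown. At 24 hpf circulating zebrafish blood is made of primitive red cells, which mature together over the following days.

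The authors deposited 1 FPKM value per gene and library (a fragment count adjusted for transcript length and library depth), and absolute depth is unknown. A log2 fold is log2((FPKM + 1)/(FPKM + 1)) of foxo3b MO over control, which understates the change of genes with low values. It was computed for 11971 of 14417 genes, those whose mean over the 4 libraries reached 1 FPKM. FPKM summed to 1576674 in foxo3b MO and 2288669 in control, 1047 genes were listed at 0 in foxo3b MO and 938 in control, and the steps of low values gave a depth of foxo3b MO of 0.541 relative to control. The 14 erythroid markers summed to 3724 FPKM in foxo3b MO and 15310 FPKM in control, and none of them was listed at 0. Globins carried this sum. The 4 globins among the markers held 3588 FPKM in foxo3b MO and 15131 FPKM in control and were all 2-fold lower, whereas the other 10 held 136 FPKM in foxo3b MO and 179 in control, 2 of them 2-fold lower (1.94% of all genes tested were). Those 2 were alas2, for the first enzyme of heme synthesis in red cells (15.2 FPKM in foxo3b MO and 36.8 in control), and the anion exchanger gene slc4a1a (9.66 FPKM in foxo3b MO and 24.1 in control), both named after their values were seen. The median log2 fold was −0.14 for 22 heme synthesis genes, with 2 lower and 1 higher. It was −0.08 for 20 red cell membrane genes, with 2 lower and none higher. Under equal totals both medians lay above 0 (0.39 and 0.35) and below that of all genes (0.65). The 25 erythroid and progenitor transcription factors had a median of 0.25 on the deposited scale, with none lower and 1 higher. Of the markers of other tissues, sums were 18014 FPKM in foxo3b MO and 15870 in control for epidermis, 8380 FPKM in foxo3b MO and 7609 in control for hatching gland, 4517 FPKM in foxo3b MO and 5320 in control for muscle, and 92833 FPKM in foxo3b MO and 130303 in control for yolk and liver, so both sorted samples held RNA of other tissues. Smaller sums were those of neural markers (184 FPKM in foxo3b MO and 223 in control), notochord and cartilage (193 FPKM in foxo3b MO and 126 in control), lens (67.4 FPKM in foxo3b MO and 139 in control), pigment cells (65.2 FPKM in foxo3b MO and 106 in control), myeloid cells (51.0 FPKM in foxo3b MO and 91.0 in control) and endothelium (37.8 FPKM in foxo3b MO and 26.4 in control). In such bulk samples fewer cells of a type and less RNA per cell cannot be told apart, and the part of these other tissues in the results below was not tested.

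On the deposited scale more genes were higher than lower in foxo3b MO. Of the 11971 genes, 373 were at least 2-fold higher in foxo3b MO (3.12%) and 232 at least 2-fold lower (1.94%), which makes 605 past 2-fold either way (5.05%). This balance rests on the scale: there were 188 higher and 372 lower genes after median-of-ratios scaling, and 2332 higher and 83 lower after scaling to equal totals. The median over all genes was a log2 fold of 0.19, and 8161 of them (68.2%) lay above 0. Globins, cytosolic ribosomal proteins and DNA damage response genes held 11 of the higher and 44 of the lower genes. The other 11842 genes held 362 higher (3.06%) and 188 lower (1.59%) genes, and these are the genes described here. At the threshold, ankhd1 (23.7 FPKM in foxo3b MO and 11.3 FPKM in control) lay just inside and azin1a (19.7 FPKM in foxo3b MO and 9.34 in control) just outside on the higher side. On the lower side galcb (6.97 FPKM in foxo3b MO and 15 FPKM in control) lay just inside and pvalb9 (1243 FPKM in foxo3b MO and 2487 in control) just outside.

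**Figure D1:**
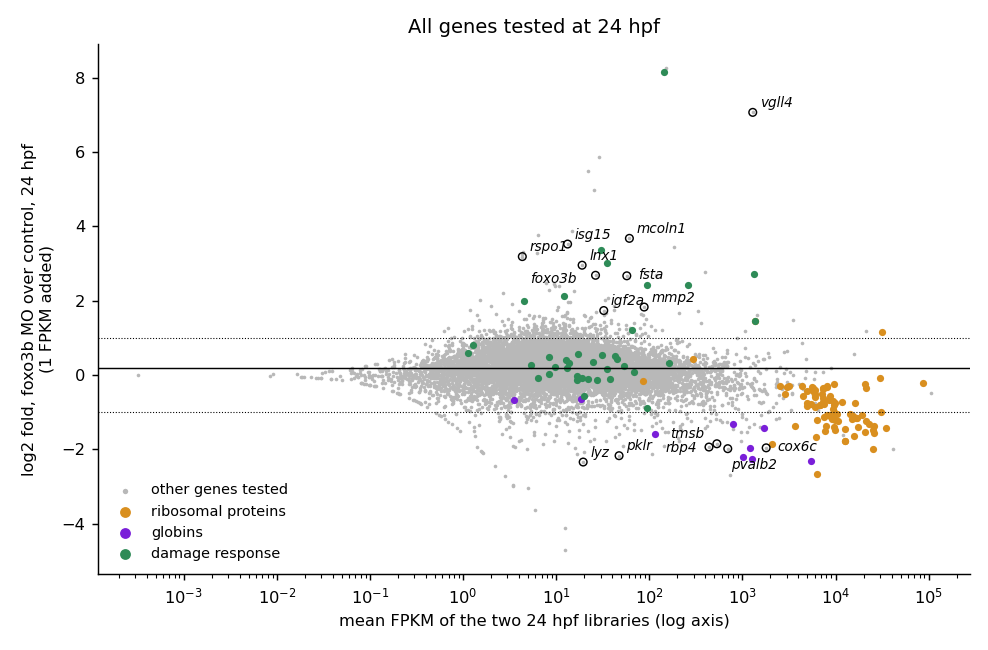
Log2 fold of foxo3b MO over control at 24 hpf against the mean FPKM of both libraries (log axis) for the 11971 genes, 1 point a gene, with cytosolic ribosomal proteins, globins and damage response genes coloured. The solid line is the median of all genes (0.19) and the dotted lines mark 2-fold. Most points lie between the dotted lines, and the genes above 1000 FPKM lie mainly below the median.

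Families that stood higher in foxo3b MO included genes of cell-to-cell guidance, the Hedgehog and Hippo pathways, laminins and antigen presentation. Most of the 2-fold higher antigen presentation rows lie at loci shared with other genes, where values are uncertain. Families that stood lower included parvalbumins, cytochrome oxidase subunits and lens crystallins, the last mostly at values near 0. Accessory subunits of complex I and retinoid-binding proteins were also lower on the deposited scale. Under equal totals their medians were 0.003 and 0.043, where the median of all genes was 0.65. The lists behind these counts and the smaller groups within them were chosen with results of these data in view, and their counts are to be read beside 3.12% and 1.94%.

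Among single-locus genes that have a symbol, a mean of at least 10 FPKM and a value above 0 in both libraries, and that lie outside the globin, ribosomal and damage lists, vgll4 had the highest ratio. Its product is a Vestigial-like cofactor of TEAD transcription factors. It stood at 2565 FPKM in foxo3b MO and 18.1 FPKM in control, a ratio of 141.5, and at 48 hpf at 32.9 FPKM in foxo3b MO and 17.2 FPKM in control. Its relative vgll4l, at 24.6 FPKM in foxo3b MO and 21.4 FPKM in control, differed little. The gene lies on chromosome 11 (Zv9, chr11:759592-799041). Next among these genes came isg15, for a ubiquitin-like protein of the interferon response, with 25.2 FPKM in foxo3b MO and 1.28 FPKM in control, and its 48 hpf values were close to those (21.6 FPKM in foxo3b MO and 0.997 in control). It was the only 2-fold higher gene among 29 of the interferon response, of which si:dkey-188i13.11 (now ifi27.8) was 2-fold lower, with 30.3 FPKM in foxo3b MO and 69.1 FPKM in control. The lysosomal calcium channel gene mcoln1 stood at 114 FPKM in foxo3b MO and 8.01 FPKM in control, and at 117 FPKM in foxo3b MO and 25 in control at 48 hpf. Of 52 lysosomal genes, 2 were 2-fold higher and 2 lower, with a median log2 fold of 0.17. The others past 2-fold were the protease gene ctsc (138 FPKM in foxo3b MO and 48.1 FPKM in control) and both galactosylceramidase genes, galca (8.28 FPKM in foxo3b MO and 19.8 in control) and galcb.

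The targeted gene, foxo3b (chr20:32325663-32371617), stood at 46.5 FPKM in foxo3b MO and 6.40 FPKM in control, so the library labelled foxo3b MO held the higher level of the message. Its paralog foxo3a had 10.7 FPKM in foxo3b MO and 8.90 FPKM in control. The 16 other genes within 1 Mb of foxo3b had log2 folds of −0.30 to 0.69, and none was past 2-fold.

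Several of the 15 highest genes act outside the cell or at its surface. The follistatin gene fsta, for a secreted inhibitor of activins and Bmps, stood at 99.9 FPKM in foxo3b MO and 14.9 FPKM in control. The matrix metalloprotease gene mmp2 stood at 138 FPKM in foxo3b MO and 38.1 in control, and the neural cell adhesion gene lsamp at 204 FPKM in foxo3b MO and 30.5 in control. At 48 hpf lsamp went the other way, with 218 FPKM in foxo3b MO and 541 FPKM in control. Inside the cell, lnx1, for a ubiquitin ligase known in mammals to bind Numb, had 34.4 FPKM in foxo3b MO and 3.57 FPKM in control. The small GTPase gene rhoub had 59.1 FPKM in foxo3b MO and 13.4 in control, and mat2al, for a methionine adenosyltransferase that makes the methyl donor of the cell, had 66.7 FPKM in foxo3b MO and 17.7 in control. The transcription factor gene mkxb, a mohawk homeobox gene, had 23 FPKM in foxo3b MO and 5.16 FPKM in control. At 48 hpf it stood at 1.62 FPKM in foxo3b MO and 296 in control. The other members of the 15 were parp3, a DNA repair gene (16.8 FPKM in foxo3b MO and 4.02 in control), the GTP-binding protein gene gtpbp1l (26.2 FPKM in foxo3b MO and 4.68 in control), ubtd1b (21.8 FPKM in foxo3b MO and 4.83 in control) and the microRNA gene mir363. The row of mir363 held 687 FPKM in foxo3b MO, 100.3 FPKM in control and 0 in both 48 hpf libraries, over a locus of 128 bp.

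The 15 lowest genes included genes of blood, liver, muscle and the mitochondrion. The lysozyme gene lyz, a marker of granulocytes and macrophages in fish, had 5.75 FPKM in foxo3b MO and 33.3 FPKM in control. Of 28 myeloid genes no other was past 2-fold. Their median log2 fold was −0.06, beside 0.19 for all genes, and 13 of the 28 lay above 0. The red cell and liver pyruvate kinase gene pklr, for the last step of glycolysis, had 16.6 FPKM in foxo3b MO and 78.2 FPKM in control. At 48 hpf pklr was the higher one in foxo3b MO, with 30.7 FPKM against 16.4 FPKM in control. The mitochondrial gene tmem14c, known in mammals for carrying porphyrin during heme synthesis, had 93.5 FPKM in foxo3b MO and 321 FPKM in control. The histidine-degrading enzyme gene ftcd (9.96 FPKM in foxo3b MO and 36.5 in control) and the aldehyde reductase gene akr1a1a (7.97 FPKM in foxo3b MO and 27.5 in control) were among them, as was sh3bgr (4.42 FPKM in foxo3b MO and 15.7 in control), which mammals express in heart and muscle. The thymosin gene tmsb, for a small protein that holds actin monomers, had 230.3 FPKM in foxo3b MO and 833 FPKM in control. A second thymosin gene named after its values were seen, wu:fb15g10 (now tmsb1), had 432 FPKM in foxo3b MO and 1478 in control.

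**Figure D2:**
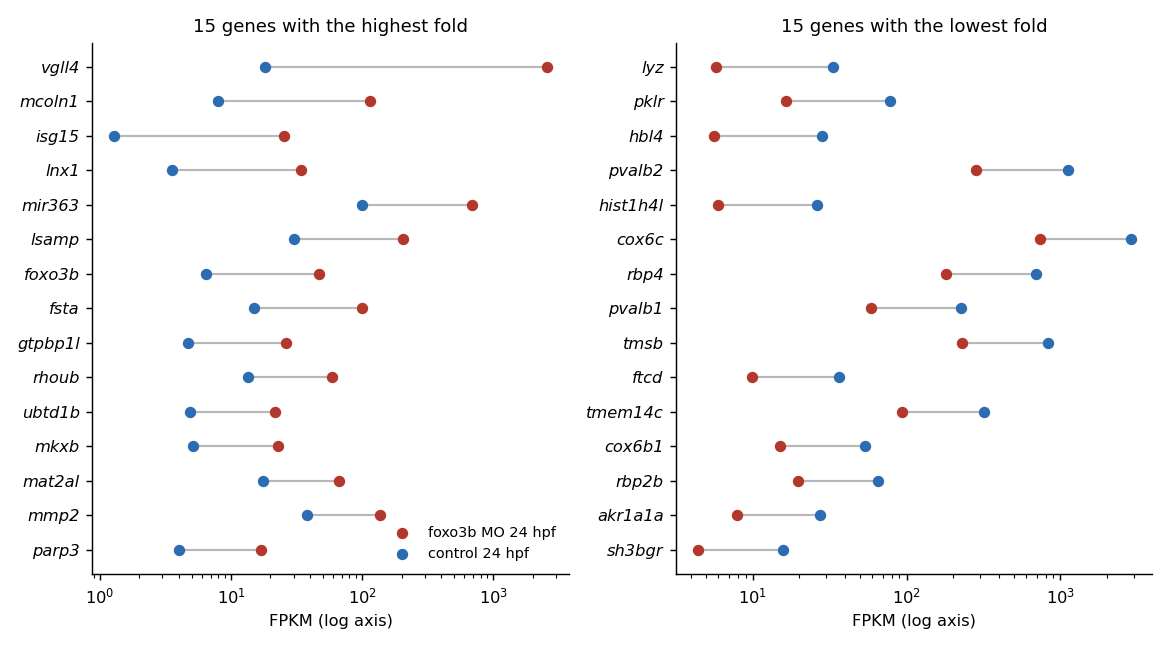
FPKM at 24 hpf (log axis) in foxo3b MO (red) and control (blue) for the 15 genes with the highest (left) and the 15 with the lowest (right) log2 folds, 1 library a point. Each pair of points shows 1 gene; vgll4 has the widest gap on the left (2565 FPKM in foxo3b MO and 18.1 in control) and lyz on the right (5.75 FPKM in foxo3b MO and 33.3 in control).

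Genes for axon guidance cues and their receptors stood on the higher side. Netrins, slits and semaphorins are secreted or membrane-bound cues read by Dcc, Unc5, Robo, neuropilin and plexin receptors, first described in axons and also used by blood vessels and other migrating cells. All 45 genes of this list had a log2 fold above 0 and 41 lay above the median of all genes, 8 were 2-fold higher and none was 2-fold lower, with a median of 0.67. Among the cues, sema3ab stood at 14.3 FPKM in foxo3b MO and 5.25 FPKM in control and sema3gb at 17.6 FPKM in foxo3b MO and 7.57 in control. Among the receptors, plxnb2a had 28.4 FPKM in foxo3b MO and 12.6 FPKM in control, and a further family member, si:ch211-127b11.1 (now plxnb2a.2) had 1.8 FPKM in foxo3b MO and 0.231 in control. The most abundant member, nrp1a, for a neuropilin that also binds Vegf, had 31.0 FPKM in foxo3b MO and 17.1 in control. By kind, the medians were 1.03 for 4 netrins, 0.86 for 4 netrin receptors, 0.81 for 8 plexins, 0.63 for 4 slits, 0.52 for 4 neuropilins, 0.52 for 3 Robo receptors and 0.51 for 18 semaphorins. At 48 hpf the median of the whole list was −0.21.

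Ephrins and their Eph receptors, a further set of contact-dependent guidance signals, lay above 0 in 16 of 17 genes and above the median of all genes in 14, with a median of 0.51 (0.10 at 48 hpf). Of 9 ephrins 3 were 2-fold higher (median 0.39), and of 8 Eph receptors none was past 2-fold (median 0.52). The ephrin genes efna5b (30.2 FPKM in foxo3b MO and 9.12 FPKM in control), efnb2a (37.9 FPKM in foxo3b MO and 17.2 in control) and efnb1 (29.6 FPKM in foxo3b MO and 14.3 in control) were those past 2-fold, and the annotated locus of efna5b covers only 303 bp. The most abundant receptor gene, ephb2b, stood at 103 FPKM in foxo3b MO and 108 FPKM in control.

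All 16 Hedgehog pathway genes lay above 0 and 14 lay above the median of all genes, with a median log2 fold of 0.60 (0.11 at 48 hpf). Hedgehog ligands relieve a block on Smoothened, after which Gli factors switch on target genes that include gli1. Of the 16 genes 2 were 2-fold higher and none was lower, and gli1 stood at 11.1 FPKM in foxo3b MO and 4.46 FPKM in control. The Hedgehog-binding inhibitor gene hhip (18.5 FPKM in foxo3b MO and 9.84 in control), the ligand gene ihhb (3.48 FPKM in foxo3b MO and 1.39 in control) and the co-receptor gene cdon (49.3 FPKM in foxo3b MO and 31.9 in control) lay between 0.61 and 0.91 on the log2 scale. The ligand gene shha, named after its values were seen, had 20.6 FPKM in foxo3b MO and 17.0 FPKM in control.

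In the Hippo pathway, where Lats kinases hold the coactivators Yap and Taz away from TEAD factors on DNA, 22 of 23 genes lay above 0 and also above the median of all genes, with 4 of them 2-fold higher, none lower and a median of 0.55. Beside vgll4, the kinase gene lats2 stood at 19.9 FPKM in foxo3b MO and 8.47 FPKM in control. The Taz gene wwtr1 had 20.02 FPKM in foxo3b MO and 9.25 in control, and the TEAD gene zgc:171784 (now tead3b) had 40.6 FPKM in foxo3b MO and 19.7 in control. The medians were 0.54 for 10 kinases and scaffolds, which restrain Yap and Taz, and 0.98 for 4 Yap, Taz and TEAD genes. Among them the coactivator gene yap1, named after its values were seen, had 50.0 FPKM in foxo3b MO and 29.3 FPKM in control.

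**Figure D3:**
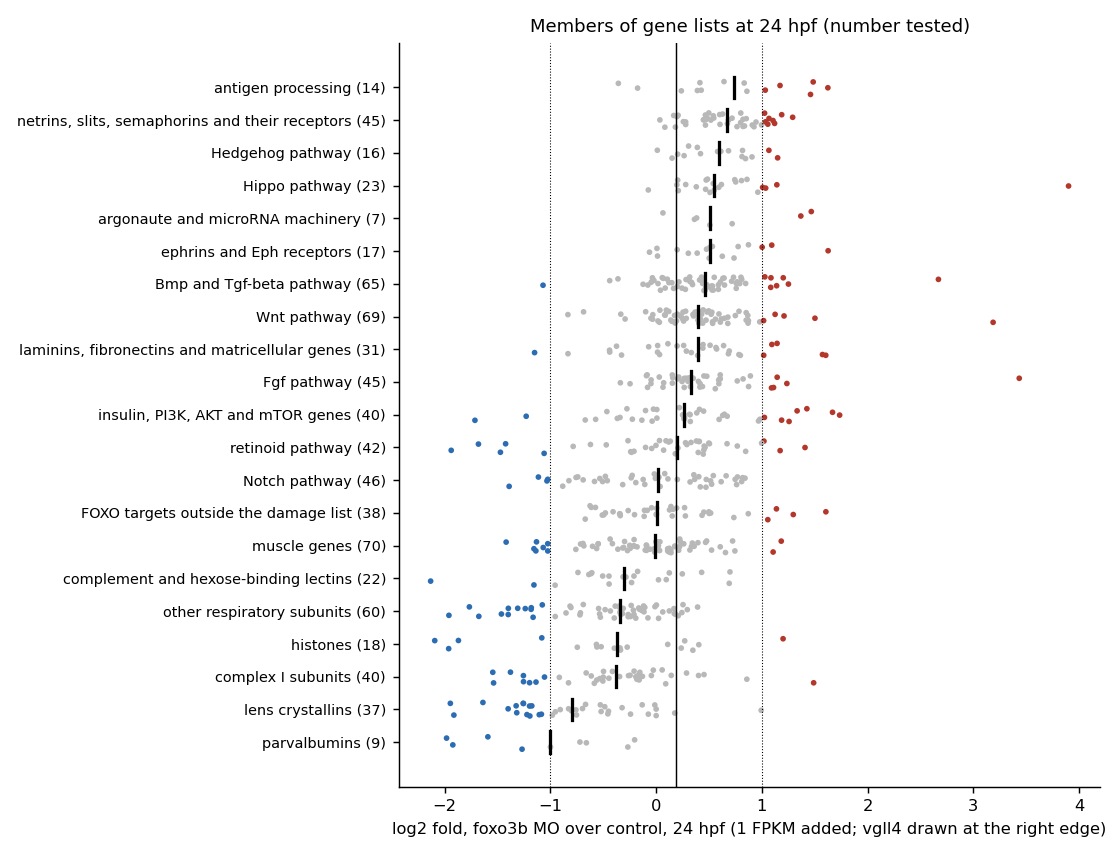
Log2 folds of foxo3b MO over control at 24 hpf for the members of 21 gene lists, 1 point a gene, with red for at least 2-fold higher, blue for at least 2-fold lower and a black bar for the median. The netrin, slit and semaphorin list lies wholly above 0 (median 0.67) and the parvalbumins wholly below 0 (median −1.0); vgll4 (7.07) is drawn at the right edge.

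The insulin and PI3K pathway is the one that restrains FOXO proteins. Of its 40 genes 7 were 2-fold higher and 2 lower, with a median log2 fold of 0.27 (−0.05 at 48 hpf). That median was only 0.08 above the median of all genes, which 25 of the 40 genes exceeded. It was 0.05 with folds centred by locus width, as described below. Of the 7 higher genes 5 encode ligands or receptors. Both Igf ligand genes that were tested were 2-fold higher, igf2a with 50.4 FPKM in foxo3b MO and 14.5 FPKM in control and igf2b with 16 FPKM in foxo3b MO and 6.11 in control. So were 3 of 5 receptor genes, igf1ra (10.6 FPKM in foxo3b MO and 3.59 in control), insrb (14.5 FPKM in foxo3b MO and 5.80 in control) and igf2r (10.5 FPKM in foxo3b MO and 4.63 in control). The receptors were grouped by symbol, and whether each of them signals to PI3K was not checked. The insulin gene insb went the other way, at 3.23 FPKM in foxo3b MO and 8.91 FPKM in control. Further down, the PI3K regulatory subunit gene pik3r3a had 52.5 FPKM in foxo3b MO and 15.8 FPKM in control, while its paralog pik3r3b had 7.91 FPKM in foxo3b MO and 7.87 in control. The Igf-binding protein gene igfbp7 had 22.5 FPKM in foxo3b MO and 7.75 in control. For Rheb, the GTPase that activates mTOR, the files hold a pair of rows that split: rheb itself had 81.7 FPKM in foxo3b MO and 68.0 FPKM in control, while zgc:73144, which carries the same current symbol, had 11.5 FPKM in foxo3b MO and 39.9 in control (108 FPKM in foxo3b MO and 304 in control at 48 hpf). The genes igf2b, igf1ra, insrb, igf2r, insb and pik3r3b were named after their values were seen.

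Among 38 genes known as FOXO targets in mammals, the damage response genes left out, 4 were 2-fold higher, none was lower, and the median was 0.00. The list does not separate targets that FOXO proteins raise from those they lower, so its counts give no direction of FOXO activity. The median of the list lay below the 0.19 of all genes, which 14 of the 38 exceeded. The Sestrin gene sesn3, an inhibitor of mTOR complex 1, stood at 49.9 FPKM in foxo3b MO and 15.7 FPKM in control. The coactivator gene cited2 had 32.2 FPKM in foxo3b MO and 12.5 in control, and the cell cycle genes ccnd2a, for a D-type cyclin, and cdkn1bl, for a p27-type inhibitor of cyclin-dependent kinases, had 62.0 FPKM in foxo3b MO and 27.6 in control and 25.5 FPKM in foxo3b MO and 11.7 in control. The sign of this list's median moved with the scaling, between −0.22 and 0.53. The 4 other FOXO genes had a median of 0.58 and none was past 2-fold.

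In the Wnt pathway, 5 of 69 genes were 2-fold higher, none was lower, and the median was 0.40 (0.02 at 48 hpf). Of the higher genes 4 were among the 16 ligand genes, wnt3a (7.53 FPKM in foxo3b MO and 2.01 FPKM in control), wnt8b (11.5 FPKM in foxo3b MO and 4.39 in control), wnt1 (12.9 FPKM in foxo3b MO and 5.35 in control) and wnt10a (4.44 FPKM in foxo3b MO and 1.69 in control, named after its values were seen). The remaining higher gene was rspo1, for a secreted R-spondin that strengthens Wnt signals, at 8.61 FPKM in foxo3b MO and 0.055 in control. The 12 Frizzled receptors had a median of 0.31 with none past 2-fold. The 4 secreted frizzled-related proteins, which bind and sequester Wnts, had a median of −0.49, also with none past 2-fold. The most abundant member, ctnnb1, for beta-catenin, had 365 FPKM in foxo3b MO and 314 FPKM in control.

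In the Bmp and Tgf-beta pathway 7 of 65 genes were 2-fold higher and 1 was lower, with a median of 0.46 (0.08 at 48 hpf). Beside fsta, the Nodal inhibitor gene lft1 had 9.14 FPKM in foxo3b MO and 3.26 FPKM in control. The receptor genes acvr2b (7.33 FPKM in foxo3b MO and 2.78 in control) and tgfbr1b (27.9 FPKM in foxo3b MO and 11.6 in control, at a locus shared by 5 genes) were higher. The Bmp target gene id1, the most abundant member, had 845 FPKM in foxo3b MO and 796 FPKM in control. In the Fgf pathway 5 of 45 genes were higher and none lower (median 0.33), among them the receptor gene fgfr1b (11.3 FPKM in foxo3b MO and 4.59 in control) and the ligand gene fgf18a (1.97 FPKM in foxo3b MO and 0.262 in control). The inhibitor gene spred2b, named after its values were seen, had 13.4 FPKM in foxo3b MO and 5.74 in control. The rows fgf2 (339 FPKM in foxo3b MO and 30.5 in control) and the feedback inhibitor spry1 (6.86 FPKM in foxo3b MO and 2.64 in control) lie at 1 locus shared by 15 genes, and the values of such rows are uncertain.

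Notch receptors release an intracellular domain that switches on hairy and enhancer-of-split genes (her and hes). None of 46 genes was 2-fold higher, 4 were lower, and the median was 0.02, between −0.19 and 0.51 over the scalings. The 4 receptor genes had a median of 0.81, notch2 with 12.4 FPKM in foxo3b MO and 6.48 FPKM in control, notch1b with 13.5 FPKM in foxo3b MO and 7.2 in control, notch3 with 49.5 FPKM in foxo3b MO and 27.8 in control and notch1a, at a shared locus, with 21.8 FPKM in foxo3b MO and 14.7 in control. The 22 her and hes genes had a median of −0.34, which was 0.036 under equal totals, and all 4 lower genes were among them. These were her15.2 (26.6 FPKM in foxo3b MO and 58.8 FPKM in control), her8.2 (5.82 FPKM in foxo3b MO and 13.0 in control), her4.3 (3.23 FPKM in foxo3b MO and 7.6 in control) and hes2.2 (0.276 FPKM in foxo3b MO and 2.34 in control). At 48 hpf none of those 4 was 2-fold lower. The Notch receptor genes were named after their values were seen. The loci of the 3 receptor genes outside shared loci cover 29696 to 103191 bp, and those of the 4 lower genes 1289 to 2685 bp.

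Laminins, the framework of basement membranes, are trimers of an alpha, a beta and a gamma chain, and of 7 laminin chain genes 4 were 2-fold higher, with a median of 1.02. The alpha chain gene lama1 stood at 35.5 FPKM in foxo3b MO and 11.3 FPKM in control, lama5 at 33.3 FPKM in foxo3b MO and 16 in control, the beta chain gene lamb1a at 80.9 FPKM in foxo3b MO and 36.1 in control and the gamma chain gene lamc1 at 99.3 FPKM in foxo3b MO and 46.0 in control. The elastic fibre gene efemp2a had 129.9 FPKM in foxo3b MO and 42.1 in control, while the vitronectin gene vtnb had 22.5 FPKM in foxo3b MO and 51.1 FPKM in control. Over the 31 genes the median was 0.39, with 5 higher and vtnb lower, and the matricellular gene sparc, the most abundant, had 361 FPKM in foxo3b MO and 454 in control. None of 24 collagens and none of 16 integrins was past 2-fold, with medians of 0.22 and 0.39. Both genes for the collagen chaperone Hsp47 were higher, zgc:171630 (now serpinh1a) with 316 FPKM in foxo3b MO and 99.1 FPKM in control and hsp47 (now serpinh1b) with 1165 FPKM in foxo3b MO and 581 in control. The genes lama5 and lamc1 were named after their values were seen.

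Genes of antigen presentation had a median of 0.74 over 14 rows, with 5 of them 2-fold higher and none lower. The 14 are those of 34 rows that reached the floor, and their median was 3.71 FPKM in foxo3b MO and 2.24 in control. The light chain gene b2m, which pairs with every class I molecule, stood at 37.4 FPKM in foxo3b MO and 16 FPKM in control, and at 41.6 FPKM in foxo3b MO and 36.4 in control at 48 hpf. The class I genes zgc:136614 (now mhc1zca, 2.62 FPKM in foxo3b MO and 0.175 in control) and si:ch211-287j19.6 (now mhc1zea, 15.2 FPKM in foxo3b MO and 4.89 in control) and the proteasome activator gene psme2 (2.68 FPKM in foxo3b MO and 0.314 in control) lie at loci shared with other genes. So does the last of the 5 higher rows, zgc:162351 (5.31 FPKM in foxo3b MO and 2.09 in control). The values of rows at shared loci are uncertain. The rows zgc:162351 and si:ch211-287j19.6 carry the same current symbol, mhc1zea, and may stand for the same gene. The class I gene mhc1uba, like zgc:162351 named after its values were seen, had 0.181 FPKM in foxo3b MO and 0.513 FPKM in control.

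In the small RNA machinery, 2 of 7 genes were 2-fold higher and the median was 0.51. Argonaute proteins carry microRNAs to their targets, and eif2c3b (now ago3b) stood at 11 FPKM in foxo3b MO and 3.32 FPKM in control. The related eif2c4 (now ago4) had 36.0 FPKM in foxo3b MO and 13.3 in control at a locus shared by 24 genes, and dicer1, for the enzyme that cuts microRNA precursors, had 10.4 FPKM in foxo3b MO and 5.95 in control.

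On the lower side were subunits of the respiratory chain. Complex I passes electrons from NADH to ubiquinone. Of its 40 nuclear genes in the list 8 were 2-fold lower and 1 was higher, with a median log2 fold of −0.38. All 8 belonged to the 27 genes grouped as accessory subunits, which do not carry the redox centres (median −0.53, and 0.003 under equal totals), among them ndufa5 (491 FPKM in foxo3b MO and 1434 FPKM in control), ndufa6 (572 FPKM in foxo3b MO and 1664 in control) and ndufb6 (229 FPKM in foxo3b MO and 596 in control). The grouping went by symbol alone, with ndufa4 and ndufa4l among the 27, and membership of the complex was not checked. None of the 7 core subunits was past 2-fold (median −0.15, and 0.38 under equal totals), with ndufs1 at 119.6 FPKM in foxo3b MO and 115 in control and ndufv1 at 137 FPKM in foxo3b MO and 142 in control. The 1 higher row, ndufa13 (5143 FPKM in foxo3b MO and 1831 in control), lies at a locus shared by 7 genes. Of the other 60 respiratory genes, 12 were lower and none higher, with a median of −0.34, and 6 of these were among 15 cytochrome oxidase subunits (median −0.72, and −0.18 under equal totals). These included cox6b1 (15.1 FPKM in foxo3b MO and 53.7 FPKM in control), the muscle forms cox6a2 (1.01 FPKM in foxo3b MO and 5.43 in control) and cox7a1 (1.27 FPKM in foxo3b MO and 4.99 in control), and cox6c (736 FPKM in foxo3b MO and 2865 in control). The ATP synthase inhibitor gene atpif1 had 424 FPKM in foxo3b MO and 1171 in control, while the catalytic ATP synthase genes atp5a1 (516 FPKM in foxo3b MO and 433 in control) and atp5b (727 FPKM in foxo3b MO and 593 in control) were within 2-fold. The median of complex I lay between −0.61 and 0.15 over the scalings and that of the other respiratory genes between −0.56 and 0.19. Under equal totals both lay above 0 and below the median of all genes (0.65). The genes ndufs1, ndufv1, cox7a1, atp5a1 and atp5b were named after their values were seen.

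Parvalbumins, small calcium buffers, lay below 0 in all 9 rows, with 4 of them 2-fold lower and a median of −1.0. Which of the 9 are muscle genes was not checked. The most abundant, pvalb9 (1243 FPKM in foxo3b MO and 2487 in control), lay just short of 2-fold. The gene pvalb2 stood at 281 FPKM in foxo3b MO and 1112 FPKM in control, pvalb1 at 58.9 FPKM in foxo3b MO and 226 in control, pvalb4 at 22.8 FPKM in foxo3b MO and 70.8 in control and pvalb3 at 6.87 FPKM in foxo3b MO and 18 in control. In a separate list of 70 muscle genes 2 were higher and 7 lower (10%, beside 1.94% of all genes). The median of that list was −0.01 and lay between −0.23 and 0.39 over the scalings. Of 20 troponin genes 5 were lower (median −0.31), such as tnni2a.4 (215 FPKM in foxo3b MO and 576 in control), whereas the muscle actin gene actc1b had 2251 FPKM in foxo3b MO and 1617 FPKM in control. The muscle transcription factor gene mef2ca had 22.6 FPKM in foxo3b MO and 9.42 in control. Of the 5 muscle markers the 2 that were 2-fold lower were pvalb1 and pvalb2, and none was higher.

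Retinol is carried in blood and cytoplasm by binding proteins, converted to retinoic acid and read by nuclear receptors. Of 12 retinoid-binding protein genes 4 were 2-fold lower and 1 was higher (median −0.36, and 0.043 under equal totals). The lower ones were the plasma carrier gene rbp4 (181 FPKM in foxo3b MO and 695 FPKM in control), rbp4l (42.5 FPKM in foxo3b MO and 119.8 in control), rbp2b (19.8 FPKM in foxo3b MO and 65.6 in control) and rbp7b (30.9 FPKM in foxo3b MO and 84.5 in control). The higher one was crabp2a, for a protein that carries retinoic acid to the nucleus, with 56.2 FPKM in foxo3b MO and 20.6 in control; it was named after its values were seen, as was rxrab. Of 10 retinoid receptor genes 1 was higher and none lower (median 0.44), rxrab, with 2.45 FPKM in foxo3b MO and 0.53 FPKM in control. Among liver carriers, apom, for a lipoprotein component, stood at 117 FPKM in foxo3b MO and 314 FPKM in control and fabp6 at 1.37 FPKM in foxo3b MO and 8.44 in control. Of 37 yolk, liver and lipid carrier genes 5 were lower and none higher, with a median of −0.44, which reached 0.05 under equal totals.

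The lectin pathway gene hbl4, for a hexose-binding lectin, stood at 5.63 FPKM in foxo3b MO and 28.1 FPKM in control and at 4.08 FPKM in foxo3b MO and 11.7 in control at 48 hpf. Of 22 complement and lectin genes 2 were lower, the other being c8g (6.06 FPKM in foxo3b MO and 14.7 in control), and none was higher. The list's median of −0.30 reached 0.15 under equal totals.

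Lens crystallins had a median of −0.80 over 37 genes, with 14 lower and none higher, and −1.22 at 48 hpf. Most were near 0 at 24 hpf, with a median of 0.276 FPKM in foxo3b MO and 1.39 FPKM in control, and 20 lie at shared loci. Some rows reached the floor only through 48 hpf, such as crygm2d3. It had 0 FPKM in foxo3b MO and 1.39 in control at 24 hpf, and 273 FPKM in foxo3b MO and 807 in control at 48 hpf. The count of 14 is therefore weak as a description of 24 hpf. The gene cryba4 had 38.8 FPKM in foxo3b MO and 98.3 FPKM in control and crybb1l2 had 14.0 FPKM in foxo3b MO and 38.5 in control. Most of the gamma crystallin rows, such as crygm2d8 (0.892 FPKM in foxo3b MO and 6.29 in control), lie at 1 locus shared by 25 genes. The lens markers summed to 67.4 FPKM in foxo3b MO and 139 FPKM in control.

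Of 18 histone genes 4 were 2-fold lower and 1 higher at 24 hpf, with a median of −0.37 that reached 0.16 under equal totals, and the median at 48 hpf was 0.00. The H4 gene hist1h4l stood at 5.94 FPKM in foxo3b MO and 26 FPKM in control, and the H2A gene zgc:173652 (now hist1h2a3) at 2.53 FPKM in foxo3b MO and 11.9 in control. At 48 hpf both were higher in foxo3b MO, hist1h4l with 52.3 FPKM against 15.2 FPKM in control and zgc:173652 with 67.0 FPKM against 3.20 FPKM in control. Among variants, the H2A.Z gene h2afv was listed at 0 in foxo3b MO and at 3.27 FPKM in control, at a shared locus. The macroH2A gene h2afy had 5.93 FPKM in foxo3b MO and 2.02 in control, and the H3.3 gene h3f3a had 2805 FPKM in foxo3b MO and 4023 in control. The anaphase-promoting complex, which ends mitosis by tagging cyclins for degradation, had 2 of 11 genes lower and none higher, cdc26 (81.9 FPKM in foxo3b MO and 239 FPKM in control) and anapc11 (128 FPKM in foxo3b MO and 325 in control), with a median of −0.02 that ranged from −0.25 to 0.50 over the scalings.

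Named genes at 0 in one library were few. The rows cd247, for a T cell receptor chain (57.2 FPKM in foxo3b MO, at a locus shared by 31 genes), pmaip1, for a cell death protein of the Bcl2 family (285 FPKM), and the spliceosomal RNA gene rnu11 (305 FPKM) were listed at 0 in control, and mir21-1 was listed at 0 in foxo3b MO and at 25.2 FPKM in control. Of these, pmaip1 belongs to the damage response list set aside above. The loci of rnu11 and mir21-1 cover 138 and 149 bp. At 48 hpf cd247 was listed at 0 in foxo3b MO and at 147 FPKM in control.

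The direction of the difference went with the width of the annotated locus. Single-locus genes were put in 10 equal groups by width. In the group with the narrowest loci (110 to 3131 bp) 3.11% were 2-fold higher and 6.03% lower, the median log2 fold being 0.00. In the group with the widest loci (59627 to 865169 bp) 6.22% were higher and 0.0914% lower, with a median of 0.39. Among genes at 10 to 100 FPKM alone the same groups had medians of 0.02 (433 genes) and 0.42 (397 genes). At 48 hpf the medians of the narrowest and widest groups were 0.00 and −0.09. The median locus width was 66899 bp for guidance cues and receptors, 57674 bp for ephrins and Eph receptors and 43258 bp for the Hedgehog list, 9062 bp for parvalbumins and 5657 bp for the respiratory genes outside complex I, and 14740 bp over all genes. Folds were also centred within the 10 groups, a step added after the data were seen. With it the medians became 0.64 for antigen processing, 0.37 for the Hippo pathway, 0.36 for guidance cues and receptors and 0.33 for the Hedgehog pathway. The medians became 0.22 for ephrins and Eph receptors together, with 0.07 for the 9 ephrins and 0.23 for the 8 Eph receptors. They became 0.08 for the 31 genes of the laminin list and 0.70 for the 7 laminin chains within it. They became −1.0 for parvalbumins, −1.01 for lens crystallins and −0.50 for complex I, against a median of all genes of 0 on that scale. What part locus width has in the differences was not tested.

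**Figure D4:**
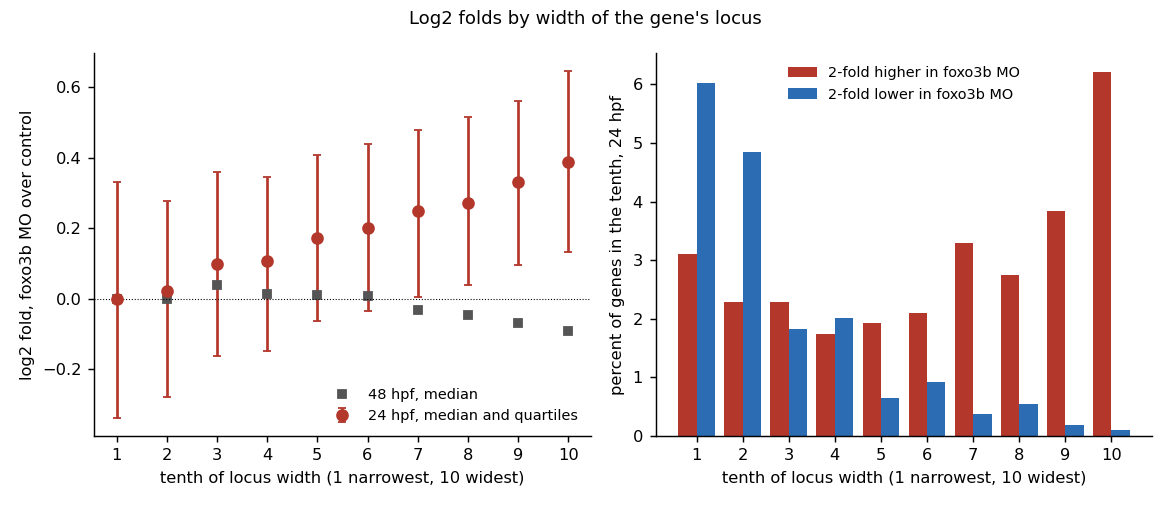
Left, median log2 fold of foxo3b MO over control in 10 equal groups of locus width, narrowest to widest, with quartiles for 24 hpf and medians for 48 hpf. Right, percent of genes at least 2-fold higher (red) and lower (blue) at 24 hpf in each group. The 24 hpf median climbs across the groups to 0.39 in the widest, and the percent lower drops to 0.0914 there.

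The level of a gene also went with the direction. Of the 194 genes above 1000 FPKM, 27.8% were lower and 4.12% higher, with a median of −0.50, and ribosomal proteins are many of these. Of the 1023 genes at 100 to 1000 FPKM, 4.40% were lower and 1.27% higher. Across chromosomes the share of higher genes ran from 1.17% on chromosome 17 to 4.25% on chromosome 1, and that of lower genes from 0.962% on chromosome 14 to 3.57% on chromosome 3.

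Genes whose symbols differ only in a last letter a or b were paired by symbol alone, and not all such pairs are paralogs (rnaseh2a and rnaseh2b encode different subunits of 1 enzyme). Of 706 such pairs with both members measured, 646 had neither member past 2-fold, 58 had 1 and 2 had both, always the same way. The pairs with both members past 2-fold were igf2a with igf2b, and the fast troponin T genes tnnt3a (301 FPKM in foxo3b MO and 613 FPKM in control) and tnnt3b (74.8 FPKM in foxo3b MO and 153 in control). The log2 folds of the members differed by more than 2-fold in 47 pairs, with a median difference of 0.29 over all pairs. Beside foxo3b, wide gaps were seen for the Gdnf receptor gene gfra1a (13.9 FPKM in foxo3b MO and 1.66 FPKM in control) against gfra1b (1.65 FPKM in foxo3b MO and 1.04 in control), and for fabp7a, for a brain fatty acid carrier (118 FPKM in foxo3b MO and 306 in control), against fabp7b (14.3 FPKM in foxo3b MO and 8.67 in control). The glycerol phosphate dehydrogenase gene gpd1a had 58.0 FPKM in foxo3b MO and 20.2 in control, while gpd1b had 60.6 FPKM in foxo3b MO and 84.4 in control. Beside slc4a1a, which was 2-fold lower, slc4a1b had 4.36 FPKM in foxo3b MO and 3.10 in control. These pairs were chosen for their difference and are a description.

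The 48 hpf pair shares no library with the 24 hpf pair. There 230 genes were 2-fold higher (1.92%) and 439 lower (3.67%), 669 in all (5.59%). Of the 373 genes higher at 24 hpf, 19 were also 2-fold higher at 48 hpf, which is 5.09% of the 24 hpf genes and 8.26% of the 48 hpf genes; 221 had the same sign and 17 were 2-fold lower. Of the 232 genes lower at 24 hpf, 50 were also lower at 48 hpf (21.6% and 11.4%), 174 had the same sign and 15 were 2-fold higher. These counts are over all genes tested, the lists set aside above included. The 50 thus hold globins such as hbae3 and ribosomal proteins such as rps26. They also hold gamma crystallin rows, such as crygm2d8, at the locus shared by 25 genes. The median log2 fold of all genes at 48 hpf was −0.02. Among the 15 highest named genes 2, mcoln1 and isg15, were 2-fold higher at both stages, and among the 15 lowest 3 were 2-fold lower at both, hbl4, cox6b1 and rbp2b.

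**Figure D5:**
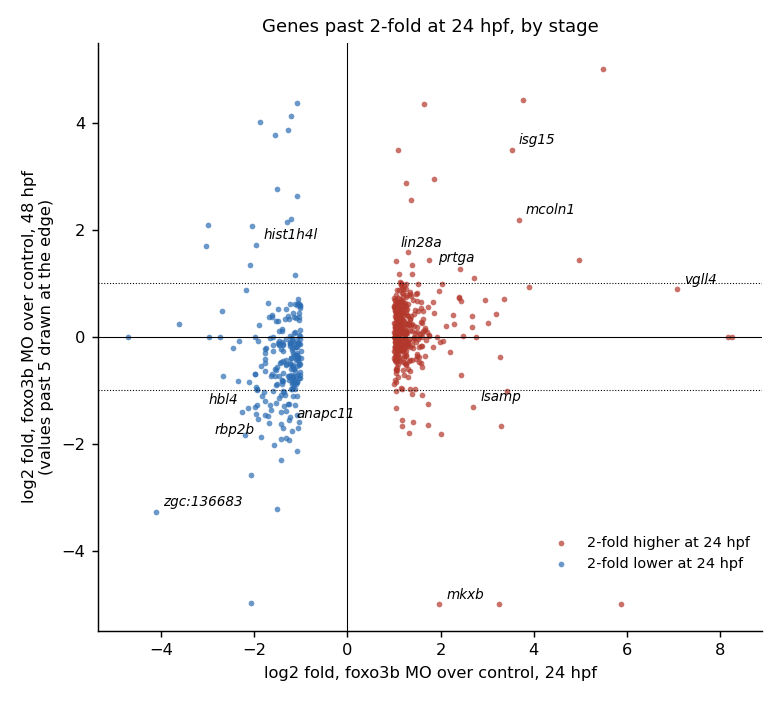
Log2 fold of foxo3b MO over control at 48 hpf against that at 24 hpf for the 605 genes past 2-fold at 24 hpf, 1 point a gene, with values past 5 at 48 hpf drawn at the edge. Globins, ribosomal proteins and damage response genes are included. The 373 higher genes spread around 0 at 48 hpf (221 of them above 0), while 174 of the 232 lower genes lie below 0.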

How the data were processed

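RNA-seq libraries of Gata1+ cells from foxo3b MO and control zebrafish embryos (1 each at 24 and 48 hpf) were made from TRIzol RNA by an Illumina preparation, per the labels. Values are FPKM per gene deposited by the authors, made with TopHat and Cufflinks on Zv9, per the submitters' processing notes; the sources used here give neither versions nor options nor the annotation. Genes are named as in the files, with current symbols for 14134 of 14417 looked up in RefSeq (names only). Coordinates are Zv9, and 1436 genes share a locus. Log2 folds used a pseudocount of 1 FPKM and a floor of 1 FPKM on the mean of the 4 libraries, with a threshold of 2-fold and no test, for want of replicates. The fold and threshold steps alone were run on simulated data with planted changes and an assumed noise. Lists, scalings, groups of locus width and gene pairs were not part of that run.

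The members, gene lists and groups within lists were chosen with earlier results of these data known. The text names foxo3b; the 15 highest and 15 lowest of 5024 genes (mean of the 24 hpf libraries of at least 10 FPKM, above 0 in both, with a symbol, a locus of their own, outside the globin, ribosomal and damage lists); genes at 0 in one 24 hpf library and at least 20 FPKM in the other; and, in each list, the most abundant member and up to 4 of the largest absolute folds. A few genes that this would name are left out of the text. The settings varied were the pseudocount (0.1 and 5 FPKM), the floor, 3 scalings and leaving out zeros or shared loci, with, added after the data were seen, centring by locus width. Promoter letters and protein lengths are not used here. Software was Python 3.11.15 with numpy 2.4.6, pandas 2.3.3 and matplotlib 3.10.9.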

Additional observations from a re-analysis of the deposited data

How the results depend on the processing

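The number of genes at least 2-fold higher in foxo3b MO, 373 in the analysis reported, was 778 with a pseudocount of 0.1 FPKM, 121 with a pseudocount of 5 FPKM, 188 with median-of-ratios scaling, 2332 with equal totals, 785 with equal totals without ribosomal proteins and 186 with centring within 10 groups of locus width, which was added after the data were seen. The number 2-fold lower, 232, was 393 and 142 with the same pseudocounts, 372 with median-of-ratios scaling and 83 with equal totals. No other setting moved either count by over 1.5 times. The median over all genes, a log2 fold of 0.19, became 0.22 and 0.12 with the pseudocounts of 0.1 and 5 FPKM, 0.14 with no floor, 0.18 with a floor of 5 FPKM, 0.20 with the floor set on the 24 hpf libraries, −0.010 with median-of-ratios scaling, 0.65 with equal totals, 0.36 with equal totals without ribosomal proteins, 0.19 without genes listed at 0, 0.19 without shared loci and 0.00 with centring by locus width. Which side holds more genes past 2-fold therefore rests on the scaling, and directions near 0 are relative to it. Of 82 gene lists, 11 had a median of at least 0.5 in size, and all 11 kept their direction in every setting run, as did all 173 named genes past 2-fold. Both sets were picked for their size, while the settings moved the median of all genes between −0.010 and 0.65. Such lists and genes had little room to turn, so their kept direction is no check on them. No paired analysis was possible because each group has 1 library. Absolute depth is unknown, so counting error cannot be attached to any value, and with 1 library a group no difference has a replicate check.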

Other observations

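Other genes were 2-fold higher in foxo3b MO at both stages. They include lin28a, for an RNA-binding protein of undifferentiated cells that blocks let-7 microRNAs, with 38.1 FPKM in foxo3b MO and 14.0 FPKM in control at 24 hpf and 11.8 FPKM in foxo3b MO and 4.03 in control at 48 hpf. The nucleolar protein gene nolc1 had 66.3 FPKM in foxo3b MO and 25 in control and then 15.5 FPKM in foxo3b MO and 6.31 in control, and prtga, for a receptor of the Dcc family, had 65.2 FPKM in foxo3b MO and 18.8 in control and then 9.26 FPKM in foxo3b MO and 2.82 in control. The chemokine gene zgc:195195 (now ccl20a.3) had 16.5 FPKM in foxo3b MO and 7.25 in control and then 20.2 FPKM in foxo3b MO and 0.882 in control. Among genes lower at both stages, plgrkt, for a plasminogen receptor, had 73.7 FPKM in foxo3b MO and 200.1 FPKM in control and then 190 FPKM in foxo3b MO and 947 in control. The fatty acid carrier gene fabp7a had 999 FPKM in foxo3b MO and 2457 FPKM in control at 48 hpf. These genes were picked after their values were seen.

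Further lists held few genes past 2-fold at 24 hpf. Of 35 circadian clock genes 2 were higher and none lower (median 0.42), per3, a period gene, with 10.7 FPKM in foxo3b MO and 3.47 FPKM in control, and the nuclear receptor gene roraa with 2.16 FPKM in foxo3b MO and 0.345 in control. Of 17 keratins 2 were higher, zgc:110712 (now krt99) with 161 FPKM in foxo3b MO and 68.5 in control and wu:fb17f05 (now krt96) with 191 FPKM in foxo3b MO and 82.2 in control, while krt4, the most abundant, had 9466 FPKM in foxo3b MO and 8263 in control. Of 233 solute carriers 12 were higher and 3 lower (median 0.24), among them slc25a4, a mitochondrial ADP/ATP carrier of muscle, with 1.37 FPKM in foxo3b MO and 6.97 FPKM in control. Of 16 genes of iron uptake and storage 2 were higher and 1 lower (median 0.11, and −0.12 with median-of-ratios scaling). The higher ones were tfr2, for a transferrin receptor that senses iron, with 21.6 FPKM in foxo3b MO and 6.88 FPKM in control, and hephl1, for a copper oxidase of the hephaestin family, with 18.2 FPKM in foxo3b MO and 6.38 in control at a locus shared by 19 genes. The lower one was the hepcidin gene hamp2, for the hormone that limits iron export, with 0.209 FPKM in foxo3b MO and 2.44 FPKM in control at a locus shared by 2 genes. The ferritin gene fth1a had 1030.0 FPKM in foxo3b MO and 1201 in control. Of 44 endothelial genes 3 were higher and none lower (median 0.33), the growth factor gene vegfaa, its receptor gene kdr (8.49 FPKM in foxo3b MO and 3.03 in control) and angpt1 (12.7 FPKM in foxo3b MO and 5.12 in control), the ligand of the Tie2 receptor.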
